A study of Rattus norvegicus with 6 samples.

Results

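Prima1, Colq, Ache and Bche are the genes of cholinesterase and of the proteins that hold it in place. Acetylcholinesterase (Ache) and butyrylcholinesterase (Bche) split acetylcholine. Their tetramers are held at the cell surface by PRiMA, a small transmembrane protein encoded by Prima1, and in the basal lamina by ColQ, a collagen-like tail encoded by Colq. Both anchors bind the same C-terminal region of the enzyme, and they are best known from brain and from the neuromuscular junction. The genes were chosen by the difference of Prima1 between MS+ and MS- serum in these same libraries, so the values of Prima1 are given as a description, without a test. Of the 4 genes, 3 had a row in the table of 16499 gene symbols, each represented by its most abundant row, and Ache was not analysed here.

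Synovial fibroblast-like cells are adherent cells cultured out of the lining of joints, here from female Wistar rats with collagen-induced arthritis before any therapy. Cells of 2 rats were each split over 3 media, which gave 6 libraries of poly(A)-selected RNA. To the medium was added fetal bovine serum (FBS), blood serum from unstimulated animals (MS-), or blood serum from animals given 18 days of subcutaneous mechanical stimulation with needles (MS+), which the labels call acupuncture. The replicate was the rat that gave the cells, and the number of serum donors was not given in the labels. The MS- samples have 1 label field that names healthy rats beside a disease field that names arthritis. The study describes the MS- serum both as drawn before therapy and as drawn from untreated arthritic animals, so the disease state of its donors was not settled.

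Libraries held 5463316 to 5991889 reads. Levels are given in CPM, the read count relative to a library size that the authors adjusted by TMM, and 3 reads, taken as the lowest count read as detection, equal 0.491 to 0.551 CPM. Counting intervals (95%, exact) cover counting error only, since copies made by PCR were not marked. Differences are on the log2(CPM + 1) scale, tested with limma over 9820 features that reached 1 CPM in both libraries of at least 1 group, with Benjamini-Hochberg adjustment over all of them. Because both rats appear in every group, the same fit was also made with the rat as a block, and its adjusted p is given where it changes a call. With 2 rats, p-values measure the spread between these cultures alone. Since levels are not per length, they are not compared between genes.

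The bases just upstream of Prima1 and of Chrm2, the acetylcholine receptor gene described further on, are shown to give the sequence next to their starts. Both come from RefSeq on build GRCr8, are written on the strand of the gene, and end at the base before the transcript start. Capitals mark E-boxes (CANNTG) and GC boxes (GGGCGG), sought on both strands.
Prima1, chr6:128154637-128154886, minus strand: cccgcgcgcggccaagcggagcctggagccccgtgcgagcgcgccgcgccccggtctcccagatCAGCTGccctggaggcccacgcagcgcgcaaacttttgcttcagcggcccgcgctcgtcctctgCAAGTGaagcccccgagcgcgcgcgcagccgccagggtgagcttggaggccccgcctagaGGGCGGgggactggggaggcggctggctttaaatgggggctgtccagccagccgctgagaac
Chrm2, chr4:65982200-65982449, plus strand: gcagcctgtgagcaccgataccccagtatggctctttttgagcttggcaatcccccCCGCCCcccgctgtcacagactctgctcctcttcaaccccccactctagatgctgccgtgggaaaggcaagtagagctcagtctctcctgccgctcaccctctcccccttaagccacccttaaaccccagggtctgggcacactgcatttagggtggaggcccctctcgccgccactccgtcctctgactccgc
The Prima1 stretch held 73.2% G and C, and that of Chrm2 62.0%, against a median of 51.2% over 33469 rat promoters of this length. Prima1 had E-boxes starting 186 and 122 bases before the start and a GC box at 62 bases. Chrm2 had no E-box, and its GC box, 194 bases before the start, lies on the reverse strand. E-boxes occurred in 65.5% and GC boxes in 30.5% of all these promoters. Neither stretch held the letters of an AP-1 site (TGANTCA, 6.34% of promoters) or of an EGR site (GCGTGGGCG, 0.478% of promoters). These matches describe the letters alone.

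Prima1 (NM_001108721, rn4 chr6:127473127-127524588, minus strand) was detected in all 6 libraries, and no other row of the table overlapped it. In FBS its level was 76.4 CPM in rat 1 (467 reads, counting interval 69.7 to 83.7) and 41.9 CPM in rat 2 (253 reads, 36.9 to 47.4). In MS- it was 189 CPM in rat 1 (1031 reads, 177 to 200.5) and 97.1 CPM in rat 2 (537 reads, 89.0 to 106). In MS+ it was 56.8 CPM in rat 1 (315 reads, 50.7 to 63.4) and 33.4 CPM in rat 2 (182 reads, 28.7 to 38.6). Both MS- libraries lay above the other 4, while the FBS and MS+ libraries overlapped. Both MS- libraries were above both FBS libraries for 27.1% of the tested features and above both MS+ libraries for 23.1%. Over the 2 rats the mean ± SD was 143 ± 64.7 CPM for the MS- cultures, 59.2 ± 24.4 CPM for those in FBS and 45.1 ± 16.5 CPM for the MS+ cultures. The highest library stood 5.65-fold above the lowest. In bulk RNA, fewer cells that express a gene and less of its RNA per cell cannot be told apart.

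**Figure D1:**
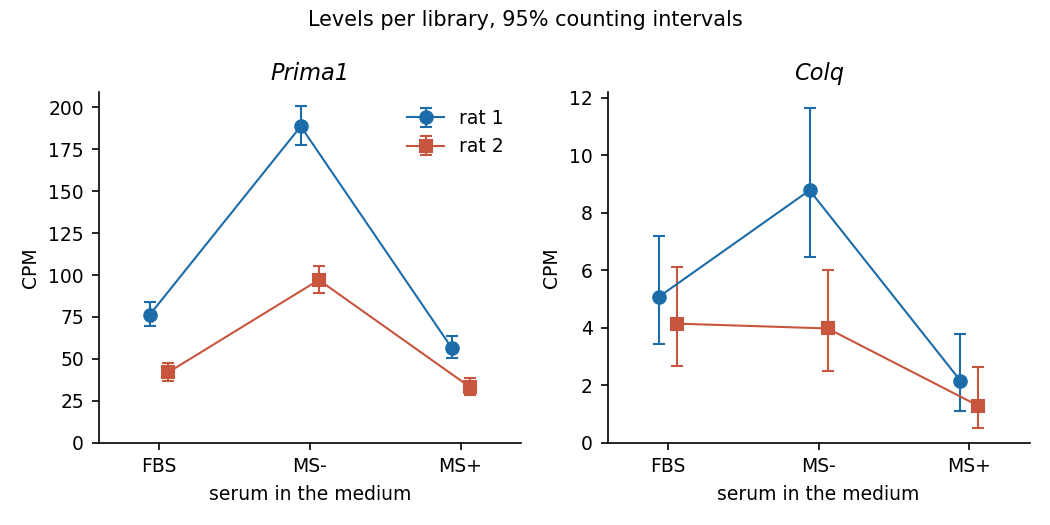
Level of Prima1 and of Colq in CPM (y axis, linear from 0) for each serum (x axis), with a line for each rat and bars for the 95% counting interval. Prima1 reached 189 CPM in rat 1 and 97.1 CPM in rat 2 with MS-, and both genes had their lowest level of each rat in MS+.

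Within each rat the order of the sera was the same, MS- above FBS above MS+. Going from MS- to MS+, Prima1 went to 0.301 of its level in rat 1 (counting interval 0.264 to 0.342) and to 0.344 in rat 2 (0.289 to 0.408), a difference of -1.61 (SE 0.41) on the log2 scale. MS- against FBS gave 2.47-fold in rat 1 (2.21 to 2.76) and 2.31-fold in rat 2 (1.99 to 2.70), a difference of 1.24. MS+ against FBS gave 0.742 in rat 1 (0.641 to 0.858) and 0.796 in rat 2 (0.655 to 0.967), a difference of -0.37, smaller than its SE of 0.41. With the rat as a block the SE of all 3 differences was 0.10, given like the differences as a description and not as a test. The last of these differences rested on single libraries when the rats were not matched, at 0.054 without the FBS library of rat 1 and 0.0020 without the MS+ library of rat 2. The order MS- above FBS above MS+ in both rats was held by 397 of the 9820 features (4.04%).

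The rats differed in the same direction with every serum. Rat 1 had more Prima1 than rat 2 by 1.82-fold in FBS (1.56 to 2.13), 1.94-fold in MS- (1.75 to 2.16) and 1.70-fold in MS+ (1.41 to 2.05). These 3 intervals overlap.

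**Figure D2:**
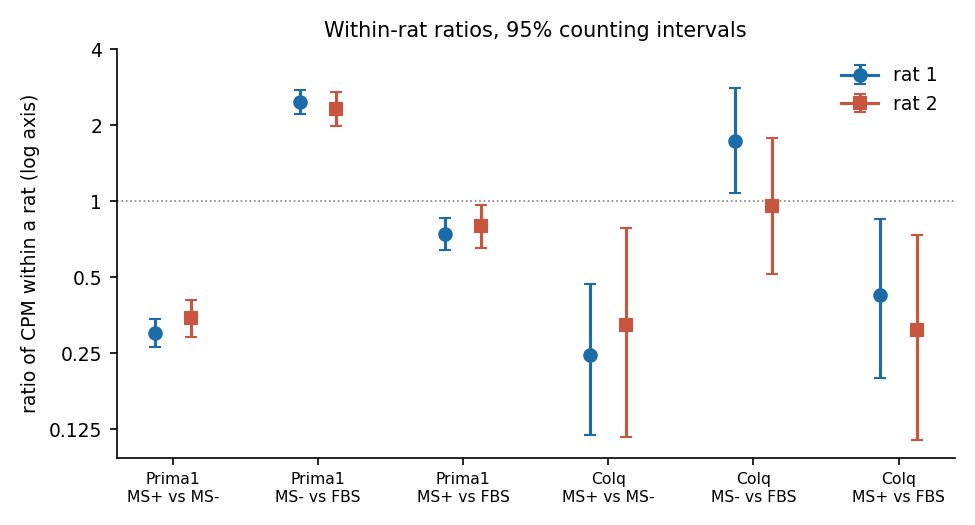
Ratio of CPM between sera within a rat (y axis, log scale) for Prima1 and Colq in the 3 comparisons (x axis), with 95% counting intervals. The ratios of Prima1 nearly coincide in the rats, at 0.301 and 0.344 for MS+ vs MS-, while those of Colq for MS- vs FBS lie on either side of 1.

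Colq (NM_019274, rn4 chr16:6975675-7035001, minus strand), the basal lamina anchor, was low, and its levels rest on 7 to 48 reads. It had 5.07 CPM in rat 1 (31 reads) and 4.14 CPM in rat 2 (25 reads) with FBS, 8.78 CPM (48 reads) and 3.98 CPM (22 reads) with MS-, and 2.16 CPM (12 reads) and 1.28 CPM (7 reads) with MS+. Both MS+ libraries were below all 4 others, and FBS and MS- overlapped. Such a separation was common, as both MS+ libraries were below both MS- libraries for 23.1% of features and below both FBS libraries for 28.3%.

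Over the 2 rats the mean ± SD of Colq was 1.72 ± 0.62 CPM with MS+ serum, 6.38 ± 3.40 CPM with MS- serum and 4.61 ± 0.66 CPM with FBS. MS+ against MS- gave -1.38 (SE 0.36, 95% interval -2.23 to -0.52), with an adjusted p of 0.186 in limma and of 0.00315 with the rat as a block. Over all alternatives the adjusted p ran from 0.00285 to 0.522. MS+ against FBS gave -1.06 (interval -1.92 to -0.20), with an adjusted p of 0.116, of 0.00598 with the block, and of 0.00598 to 0.345 over the alternatives. So Colq passed the threshold in both comparisons in the fit that matched the rats and in neither without matching. Features called lower by limma made up 0.0102% of those tested for MS+ vs MS- (4.78% with the block) and 4.66% for MS+ vs FBS (13.9% with the block). The values of Colq had also been seen when the genes were chosen. By the study's rule, 39 features were lower in MS+ than in MS-, with Prima1 at rank 3 and Colq at rank 9 by difference. The p-values of Colq therefore describe these libraries and are not an independent test.

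Within the rats, Colq in MS+ was 0.246 of its MS- level in rat 1 (0.119 to 0.471) and 0.323 in rat 2 (0.117 to 0.783). Against FBS it was 0.426 (0.199 to 0.853) and 0.310 (0.113 to 0.737). MS- against FBS differed between the rats in direction, at 1.73-fold in rat 1 (1.08 to 2.81) and 0.959 in rat 2 (0.516 to 1.77). The mean difference of this comparison was 0.32 (interval -0.54 to 1.18), with an adjusted p of 0.670 in limma, and it turned to -0.17 without the MS- library of rat 1. The anchors thus had in common a level below MS- in MS+ in both rats, but a higher level in MS- than in FBS was measured in both rats for Prima1 alone.

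Of the enzymes, Bche (NM_022942, rn4 chr2:164329613-164427994, minus strand) had 0 reads in all 6 libraries. The 95% counting interval of 0 reads reaches up to 0.604 to 0.677 CPM, depending on the library. Bche did not enter the tests. Of the enzyme side, then, Bche was not detected at this depth, and the level of Ache is not known here.

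The genes on either side of Prima1 were read to see whether neighbours shared its order. Within 200000 bases the table held 3 genes, all at higher coordinates. Asb2, a subunit of ubiquitin ligases, lies 84912 bases away. It had 3.60 CPM in rat 1 and 1.16 CPM in rat 2 with FBS, 6.04 and 2.17 CPM with MS-, and 2.34 and 0.92 CPM with MS+. Its order of sera was that of Prima1 in both rats, at 5 to 33 reads per library. Of its within-rat ratios between sera, only MS+ against MS- in rat 1 had a 95% counting interval without 1 (0.187 to 0.757). MS+ against MS- gave -0.90 for Asb2, with an adjusted p of 0.498 in limma and of 0.0423 with the rat as a block. Otub2, a deubiquitinase (155167 bases away), had 34.3 to 54.9 CPM, and Ddx24, an RNA helicase (174848 bases away), had 81.7 to 122 CPM. Otub2 held the order of Prima1 in rat 1 alone, at 46.6 CPM in MS-, 45.0 CPM in FBS and 42.7 CPM in MS+. In rat 2 its level was highest in MS+, at 54.9 CPM. Ddx24 followed that order in neither rat and rose in MS+ against FBS only with the block (0.30, adjusted p = 0.224 in limma and 0.0279 with the block). On the other side the nearest gene, Cox8c, had 0 reads. Beside Colq, Hacl1 had 7.86 CPM in rat 1 and 8.95 CPM in rat 2 with FBS, 10.6 and 9.58 CPM with MS-, and 6.49 and 7.34 CPM with MS+. Hacl1 held the order of Prima1 in both rats, as 4.04% of all features did. Both its MS+ libraries were below the other 4, as those of Colq were, and MS+ against MS- gave -0.49 (adjusted p = 0.292 in limma). Both MS+ libraries were below both MS- libraries for 23.1% of features and below both FBS libraries for 28.3%. Eaf1, on the other side of Colq, gave an adjusted p of 0.556 in limma for this comparison.

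**Figure D3:**
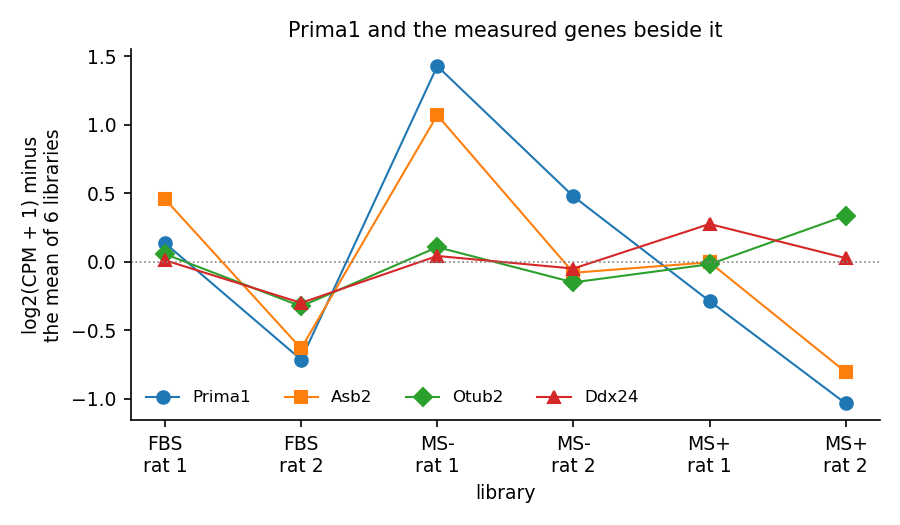
Level of Prima1, Asb2, Otub2 and Ddx24 as log2(CPM + 1) minus the gene's mean over the 6 libraries (y axis), for each library (x axis). Asb2, at 5 to 33 reads per library, was like Prima1 highest in MS- of rat 1 and lowest in MS+ of rat 2. Otub2 was highest in MS+ of rat 2 and Ddx24 in MS+ of rat 1, and both were lowest in FBS of rat 2.

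Over all features of at least 5 CPM on average (8368 features), those whose log2(CPM + 1) ran closest to Prima1 in the 6 libraries were Tbx2 (Pearson's r 0.986), Tmem150a (0.977), S1pr1 (0.973), Vapb (0.973) and Mxra8 (0.972). Those that ran most against it were Timp1 (-0.988), Ddx54 (-0.979) and Zfp532 (-0.976). With 6 libraries of 2 rats and 3 sera, high values are reached by many features, and the coefficients are a description. Tbx2 is a T-box transcription factor, S1pr1 a receptor for sphingosine 1-phosphate, and Timp1 an inhibitor of matrix metalloproteinases. Their range was narrower than the 5.65-fold of Prima1, with 2.91-fold between the highest and the lowest library for S1pr1, 1.41-fold for Tbx2 and 1.23-fold for Timp1. Colq, whose mean was under 5 CPM, had an r of 0.84 with Prima1, and Asb2 had 0.92.

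The rest of the cholinergic genes were read from 6 lists of 49 genes, of which 47 had a row. In 16 of them no read was found in any library, 27 never passed 3 reads, and 17 entered the test. At 0 reads in all libraries were Chat, which makes acetylcholine, Slc18a3, which loads it into vesicles, and Slc5a7, which takes choline back up into nerve endings. Across the 17 tested genes the median difference was -0.01 for MS+ vs MS-, 0.13 for MS- vs FBS and 0.07 for MS+ vs FBS, beside -0.01, 0.01 and 0.00 for all features.

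By limma's adjusted p, none of the 17 passed in MS+ vs MS- (0.0204% of all features did) and 2 did at an unadjusted p under 0.05 (14.7% of all features). DESeq2, edgeR and limma-voom also gave 0. In MS- vs FBS 0 of 17 passed (4.81% of all features), 3 did unadjusted (21.1% of all features), and DESeq2 gave 1 where edgeR and limma-voom gave 0. In MS+ vs FBS 2 of 17 passed (9.61% of all features), Chrm2 higher (4.95% of all features) and Agrn lower (4.66%). Once the rats were matched by the block, the counts were 3, 3 and 5 of 17, against 10.1%, 20.5% and 28.2% of all features.

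Chrm2, the M2 muscarinic acetylcholine receptor, was the only muscarinic receptor gene of the 5 that entered the test. In FBS its level was 8.84 CPM in rat 1 and 16.4 CPM in rat 2, in MS- 26.9 and 41.8 CPM, and in MS+ 59.1 and 68.6 CPM. In both rats the order was FBS below MS- below MS+, which 10.3% of all features held. MS+ exceeded FBS by 2.31 (SE 0.31, adjusted p = 0.00904 in limma), 6.69-fold in rat 1 and 4.18-fold in rat 2. The call was lost without either MS+ library, with adjusted p-values of 0.0698 without rat 1 and 0.0647 without rat 2. MS- against FBS gave 1.40 (adjusted p = 0.0526 in limma, 6.42e-06 with the block), and MS+ against MS- 0.91 (0.253, and 0.00139 with the block). A second Chrm2 row held 1.15 and 2.98 CPM in FBS, 7.13 and 8.86 CPM in MS-, and 16.8 and 18.2 CPM in MS+, in the same order. This lower row, not counted among the 17, passed in MS- vs FBS without the block (1.61, adjusted p = 0.0357 in limma). Prima1 and Chrm2 were both higher in MS- than in FBS in both rats, and from MS- to MS+ Prima1 was lower where Chrm2 was higher. Of the other muscarinic receptors, Chrm1 and Chrm3 had 0 reads, Chrm5 at most 1 and Chrm4 at most 5.

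Agrn encodes agrin, the basal lamina proteoglycan that gathers acetylcholine receptors at the neuromuscular junction, where ColQ is also held. Its level was 53.7 CPM in rat 1 and 59.9 CPM in rat 2 with FBS, 32.2 and 41.0 CPM with MS-, and 23.1 and 25.1 CPM with MS+. Both MS+ libraries were below all the others, and in both rats the order was the reverse of that of Chrm2. The share of all features with this order was not counted. Both MS+ libraries were below both MS- libraries for 23.1% of all features and below both FBS libraries for 28.3%. MS+ against FBS gave -1.20 (SE 0.15, adjusted p = 0.00813 in limma). Without the MS+ library of rat 1 the adjusted p was 0.0695, and without that of rat 2 it was 0.0510. MS+ against MS- gave -0.57 (0.185, and 0.00705 with the block), and MS- against FBS -0.63 (0.0686, and 0.00172 with the block).

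**Figure D4:**
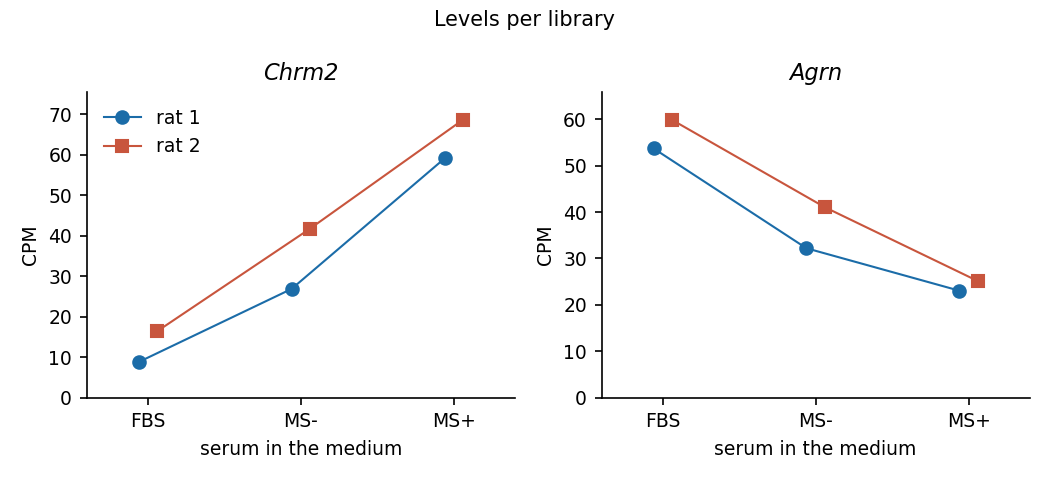
Level of Chrm2 and Agrn in CPM (y axis, linear from 0) for each serum (x axis), with a line for each rat. Chrm2 went from 8.84 and 16.4 CPM in FBS to 59.1 and 68.6 CPM in MS+, and Agrn from 53.7 and 59.9 CPM to 23.1 and 25.1 CPM.

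Among the partners of agrin at the junction, Lrp4, its receptor, had 16.2 ± 5.50 CPM in FBS, 13.0 ± 2.59 CPM in MS- and 15.5 ± 0.70 CPM in MS+, and no comparison of it passed. Musk, the kinase that Lrp4 activates, and Dok7, its adaptor, never passed 1 read. Rapsn, which clusters the receptors inside the cell, had 17.3 to 23.9 CPM with no call. Lamb2, a laminin chain of the synaptic basal lamina, had 659 ± 31.6 CPM in MS-, 521 ± 5.09 CPM in FBS and 538 ± 89.1 CPM in MS+. Lamb2 passed only with the rat as a block, at 0.34 for MS- vs FBS (adjusted p = 0.191 in limma, 0.0143 with the block) and at -0.30 for MS+ vs MS- (0.343 and 0.0457). Utrn, which links the receptor cluster to actin, ran from 193 to 300.3 CPM.

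The 16 nicotinic receptor subunits were mostly silent, with 8 at 0 reads and 13 never above 3 reads. Chrnb1 had 1.31 to 3.12 CPM and Chrnb2 0.83 to 1.44 CPM, with no call. Chrne had 0 to 8 reads and was not tested. Of the proteins that help such receptors fold, Tmem35a was lower in MS+ than in FBS only with the block (-0.86, adjusted p = 0.103 in limma and 0.0138 with the block), at 5.35 ± 1.00 CPM in FBS and 2.54 ± 1.00 CPM in MS+. Ric3 had 1.15 to 3.12 CPM. Cuta, read in the same list but not one of these folding proteins, had 12.5 to 14.2 CPM. Its row shares bases with a row of its own symbol and is uncertain.

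Of the 10 genes of choline uptake and acetylcholine handling, 4 were tested. Slc44a2, a choline transporter, had 198 ± 10.8 CPM in FBS and 163 ± 1.72 CPM in MS+, and passed for this comparison only with the block (-0.28, adjusted p = 0.144 in limma and 0.0245 with the block). Slc44a1, a related transporter whose row overlaps another of its symbol, had 39.6 ± 1.64 CPM in FBS and 28.4 ± 4.90 CPM in MS+ (-0.47, adjusted p = 0.150 in limma and 0.0187 with the block). The choline kinases Chka and Chkb had 19.0 to 35.1 CPM and 24.1 to 31.8 CPM, with no call in any comparison. The neuroligins, adhesion proteins with a cholinesterase-like domain, were detected as Nlgn2 (27.7 to 36.5 CPM) and Nlgn3 (2.46 to 4.70 CPM), also with no call.

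**Figure D5:**
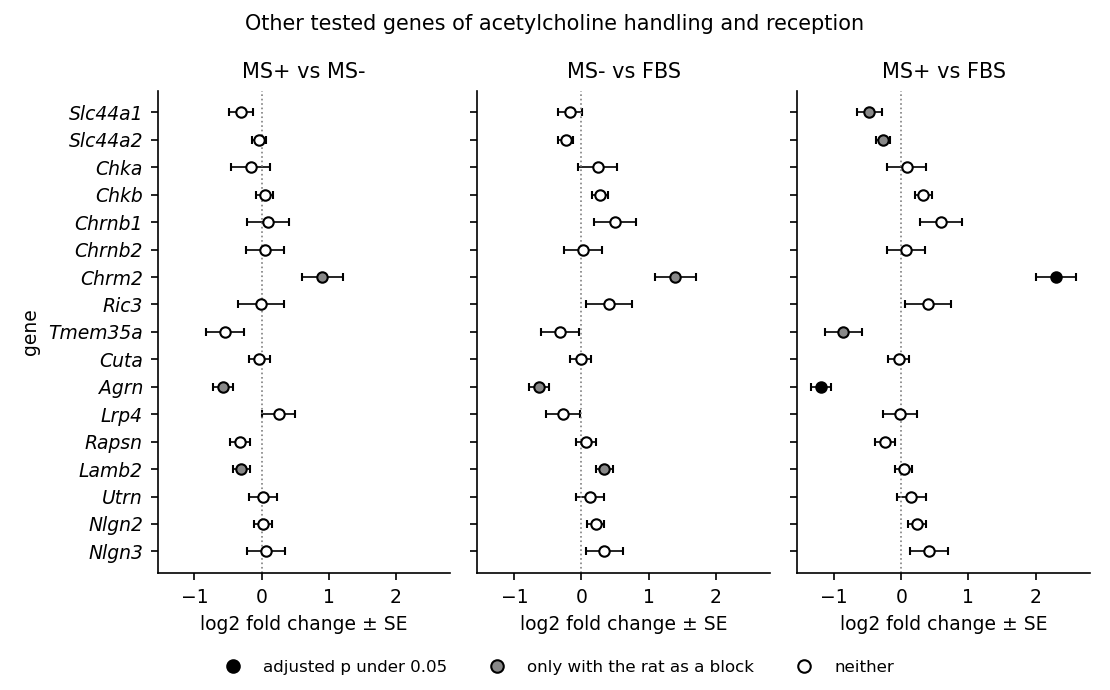
Difference in log2(CPM + 1) with its standard error (x axis) of the 17 tested cholinergic genes (y axis) in the 3 comparisons (panels). Black points passed an adjusted p of 0.05, grey points passed only with the rat as a block, and white points passed neither. The black points are Chrm2 at 2.31 and Agrn at -1.20 in MS+ vs FBS.

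Cholinesterase anchors are known from muscle, neurons and their Schwann cells, so markers of these cells were read beside Prima1. Of 20 skeletal muscle markers, 5 had 0 reads, 9 never passed 3 reads and 8 averaged at least 1 CPM. Pax7, Myf5 and Myf6 were at 0 and Myog at most 1 read, while Acta1 had 766 to 1200 CPM and made up most of the sum. Myod1 had 33 reads in FBS of rat 1 and 1 to 4 reads in the other libraries. The summed muscle level was 992 to 1064 CPM in MS-, where Prima1 was highest, 1167 to 1314 CPM in FBS and 1167 to 1240 CPM in MS+. Without Acta1, left out after the values were seen, the other 19 markers summed to 53.5 CPM in rat 1 and 385 CPM in rat 2 with FBS, 79.8 and 298 CPM with MS-, and 39.8 and 140.4 CPM with MS+. This remainder was lower in MS+ than in MS- in both rats, as Prima1 was, but higher in rat 2 than in rat 1, where Prima1 was lower. It was mostly Myh1, a fast myosin heavy chain, at 47.6 and 209 CPM in MS- and 19.6 and 88.3 CPM in MS+, and Myh2, Myh4 and Myh8 were also lower in MS+ than in MS- in both rats. Of 12 neuron markers, 8 never passed 3 reads, with Rbfox3, Elavl4 and Gap43 at 0. Their sum was 23.5 to 45.0 CPM in MS-, 41.8 to 82.2 CPM in FBS and 68.8 to 76.6 CPM in MS+. The neuron sum in MS- overlapped that in FBS. Stmn2, a neuron marker, was higher in rat 1 than in rat 2 with every serum, as Prima1 was. It had 35.7 and 8.62 CPM in FBS, 24.7 and 7.05 CPM in MS-, and 16.9 and 7.52 CPM in MS+. Unlike Prima1, Stmn2 was lower in MS- than in FBS in both rats. Tubb3, the other neuron marker averaging at least 1 CPM, was lowest in MS- in both rats. It had 44.5 and 32.8 CPM in FBS, 20.1 and 15.7 CPM in MS-, and 58.7 and 59.8 CPM in MS+.

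Of 9 measured Schwann cell markers, Sox10, Mbp and Cdh19 were at 0. Their sum had the same order of sera as Prima1, at 76.1 to 86.3 CPM in MS-, 66.5 to 72.1 CPM in FBS and 49.6 to 61.3 CPM in MS+. That order rested on Egr2. Without Egr2, left out after the values were seen, the other 8 gave 43.7 to 49.0 CPM in MS-, below the 52.1 to 54.2 CPM in FBS. In MS+ these 8 gave 41.3 to 49.7 CPM. Of 10 macrophage and blood cell markers, 8 were at 0, and their sum was 0.901 to 2.39 CPM over all libraries. The 12 synovial fibroblast markers each passed 3 reads in at least 1 library, with 10 at a mean of at least 1 CPM. Dcn and Lum never passed 5 reads, and Dcn reached 3 reads only in MS+ of rat 1. Prg4, which encodes lubricin, had 1.27 to 3.32 CPM. The sum of the 12 was 59990 to 62290 CPM in MS-, 68358 to 71129 CPM in MS+ and 78109 to 85355 CPM in FBS. The part of these cell types in the levels of Prima1 and Colq was not tested.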

How the data were processed

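The authors had poly(A)-selected RNA sequenced on an Illumina instrument, aligned the reads to rat build rn4 with Bowtie2 2.1.0 and counted them per transcript with HTSeq 0.5.4p3 (intersection-nonempty). The deposited signal is CPM after TMM scaling in edgeR. The table holds 17221 rows, of which 4567 are at 0 in every library. Reads shared by overlapping transcripts are dropped, and use of strand is not given in the sources used here. Whole reads were recovered for 100% of the values (tolerance 1e-06 reads) and used for counting intervals and count tests.

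The values log2(CPM + 1) of all 6 libraries were fitted with limma 3.58.1 under R 4.3.3, with serum as the only term and two-sided tests with a mean-variance trend. The features kept had at least 1 CPM in both libraries of a group. Alternatives were a rat block, a pseudocount of 0.1, no filter, DESeq2 size factors, library totals, limma-voom, edgeR 4.0.16, DESeq2 1.42.0 and leaving out each library. The scripts were tested on simulated data. By the labels, each group holds a culture of each of the 2 rats, which pairs the libraries. The rat differences correlated between groups at 0.59 (MS+ and MS-), 0.49 (MS+ and FBS) and 0.62 (MS- and FBS).

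Genes and lists were chosen with earlier results of these data known. The rule named the members, the list genes of at least 1 CPM (up to 4 per list by level, or passing the adjusted threshold), features within 200000 bases of Prima1, the nearest on each side of Colq and Bche, the 5 most and 3 least alike to Prima1, and defining markers with the 3 highest of each marker list. Other genes named by range were chosen after their values were seen. Hspg2 and Dag1 were not analysed here. Of the row accessions, 16169 (93.9%) were found in the RefSeq table of GRCr8, used for names and promoters. No rn4 genome was used, so exons are not given.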

Additional observations from a re-analysis of the deposited data

How the results depend on the processing

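The difference of Prima1 kept its sign under every alternative for MS+ vs MS- (-2.09 to -1.14, both with a library left out) and MS- vs FBS (0.77 to 1.72). For MS+ vs FBS it turned to 0.054 without FBS replicate 1 and 0.0020 without MS+ replicate 2, with a range over left-out libraries of -0.80 to 0.054. Such fits leave the rats unbalanced. Colq turned to -0.17 in MS- vs FBS without MS- replicate 1, with a range of -0.17 to 0.81. With the replicate block, and as a description only, Colq passed in MS+ vs MS- (-1.38 in limma, -1.86 in edgeR) and in MS+ vs FBS (-1.06 and -1.42). The block changed the calls of other genes where given above. Left-out libraries gave Colq -1.86 to -0.89 and -1.29 to -0.82.

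Counts of features at an adjusted p under 0.05 were, for MS+ vs MS-, 2 in the fit reported, 987 with the replicate block, 1015 with the block in edgeR, 123 in DESeq2, 4 in limma-voom and 0 without a filter or without any 1 library. For MS- vs FBS they were 472, 2011 and 2073 with the replicate block, 255 without a filter and 89 to 278 with a library left out. For MS+ vs FBS they were 944, 2773 and 2861 with the block, 586 without a filter and 19 to 599 with a library left out. By the study's rule (unadjusted p under 0.05, 2-fold, mean of at least 1 CPM), MS+ vs MS- gave 122 features, 215 with a pseudocount of 0.1 or with limma-voom, 234 in edgeR, 289 with the replicate block in edgeR, and 124 to 208 with a library left out. MS- vs FBS gave 355, and 537 with the block in edgeR.

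Of the cholinergic genes, the replicate block gave 3 calls in MS+ vs MS- (2 in edgeR), 3 in MS- vs FBS (3 in edgeR) and 5 in MS+ vs FBS (5 in edgeR). DESeq2 gave 1 in MS- vs FBS. With a library left out the counts were 0 to 0, 0 to 1 and 0 to 2. Apart from the stated constructions, causes were not tested. Scaling moved the median of all features to between -0.0462 and 0.0140. At 7 to 48 reads, depth limits Colq.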
